A study of Mus musculus with 8 samples.

Results

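The regions described here were the introns' share of the sites that lost H3K27ac in Nrip1 KO myotubes. H3K27ac, the acetylation of lysine 27 of histone H3, marks active promoters and enhancers, and was mapped by CUT&RUN, in which an antibody guides a nuclease to marked chromatin so that the DNA released can be sequenced. Of 11180 regions that differed between KO and control myotubes, 2797 were decreased in KO, lay outside chromosomes 4, 7, 10 and 16, and had a centre that was over 1 kb from every annotated transcript start, inside a gene body and outside every exon. The regions were chosen by the direction of the authors' call, so their loss of signal is a description and was not tested. On the 16 chromosomes used, they made up 51.4% of 5445 decreased regions (95% Wilson interval, 50.04 to 52.7), beside 45.7% of 2358 increased regions (43.7 to 47.7). All intervals given here cover counting error over regions only.

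The study comprised 8 libraries in 4 groups of 2, with an H3K27ac antibody or control IgG in KO and in control myotubes. The cells were primary myotubes grown from satellite cells of mouse gastrocnemius muscle and differentiated for 4 days, and nuclei were pooled before they were split between antibodies. KO cells came from mice in which Cre driven by the muscle creatine kinase promoter deletes floxed Nrip1 in striated muscle, and control cells came from littermates without Cre. The values were positions alone, 1 list for each direction of a change of at least 2-fold, which tell neither how deeply the libraries were sequenced nor how large a change was or how far the replicates differed. For the same reason, neither the loss of Nrip1 nor the identity of the cells could be checked from these lists, and no difference between sets of regions below was tested.

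Enhancers inside introns can act on the gene that holds them or on other genes at a distance, and acetylation of H3K27 distinguishes active enhancers from those that are only poised. RIP140, the protein that Nrip1 encodes, is a nuclear receptor coregulator best known as a corepressor of metabolic genes. In muscle cells many enhancers are bound by MyoD and related factors, which recognise short sequences called E-boxes.

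To show such sequence in the regions themselves, the host genes with the most regions were searched for the E-box CAGCTG, which reads the same on both strands. The lines below give, for the 7 leading hosts in which the richest window of 120 bases held at least 2 matches, that window from the plus strand of GRCm38.p6 (mm10), with the E-boxes in capitals.
2900026A02Rik, chr5:113210896-113211015: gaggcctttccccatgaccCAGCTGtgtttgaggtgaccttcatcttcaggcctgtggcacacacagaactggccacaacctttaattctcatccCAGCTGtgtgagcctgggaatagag
Gse1, chr8:120276300-120276419: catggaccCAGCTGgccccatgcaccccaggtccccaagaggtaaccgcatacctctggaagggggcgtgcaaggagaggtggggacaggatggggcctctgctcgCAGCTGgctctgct
Itpk1, chr12:102586671-102586790: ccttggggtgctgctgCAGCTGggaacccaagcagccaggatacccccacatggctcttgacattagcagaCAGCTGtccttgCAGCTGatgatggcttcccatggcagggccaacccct
Fry, chr5:150292342-150292461: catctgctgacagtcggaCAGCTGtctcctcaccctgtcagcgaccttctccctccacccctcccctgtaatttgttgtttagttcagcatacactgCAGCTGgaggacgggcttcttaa
Slc24a3, chr2:145583298-145583417: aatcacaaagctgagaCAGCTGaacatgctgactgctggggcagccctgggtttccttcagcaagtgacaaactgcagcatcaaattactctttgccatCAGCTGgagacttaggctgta
Vat1l, chr8:114295618-114295737: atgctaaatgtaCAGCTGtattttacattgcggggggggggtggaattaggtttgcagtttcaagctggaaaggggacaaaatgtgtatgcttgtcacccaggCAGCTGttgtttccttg
Sorcs2, chr5:36335254-36335373: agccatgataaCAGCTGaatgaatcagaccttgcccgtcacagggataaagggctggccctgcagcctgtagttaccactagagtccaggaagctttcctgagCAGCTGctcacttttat
The Itpk1 window held 3 E-boxes and the others held 2. The Gse1 window lay in a region of 1432 bp with 5 E-boxes, and the 2900026A02Rik window in a region of 5281 bp with 9. The Rftn1, Pard3 and Nckap5 regions had no window with more than 1.

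The 2797 regions had 1858 host genes. A host is any gene of GENCODE M21 whose body contains the centre of a region, and 182 regions had more than 1. Of the hosts, 1571 were protein-coding, 151 were lincRNA, 75 antisense and 34 processed-transcript genes. Among the 14838 protein-coding genes with intronic sequence in which such a region could lie, 10.6% hosted a decreased region and 4.81% an increased one. Most hosts held a single region, namely 1295 of them (69.7%), whereas 244 hosts held 3 or more and together contained 1016 regions (36.3%).

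The model with the most regions was Gm20388, with 58. It is annotated across 4434882 bp of chromosome 8 and contains 71 whole protein-coding genes, Gse1 among them. For 20 of its 58 regions it was the only host, and without it 2777 regions in 1857 hosts were left. It is not described further.

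The leading single genes were 2900026A02Rik and Gse1, with 16 regions each. 2900026A02Rik (chr5:113086323-113221236, minus strand) is protein-coding. Its 16 regions covered 50991 bp, or 37.8% of the 134914 bp gene, and ran from 1200 bp to 117969 bp after its start. In its sixth intron, which is 73627 bp long, 10 of the 16 had their centres. Gse1 (chr8:120228456-120581390), which encodes a coiled-coil protein associated with histone deacetylase complexes, carried regions from 31183 to 298586 bp after its start. Of these, 10 lay in the first intron of its longest transcript.

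Itpk1, which encodes an inositol phosphate kinase, followed with 12 regions over 136349 bp of chromosome 12. They covered 18126 bp and included 6 in the second intron. Rftn1, for the lipid raft protein raftlin, had 10 regions. Fry, a large scaffold protein that regulates NDR kinases, had 9, as had Slc24a3, a sodium, potassium and calcium exchanger, and Vat1l. None of these 5 genes held an increased intronic region. Itpk1 and Rftn1 each also had a decreased region within 1 kb of a start of their own, and Gse1, Fry, Slc24a3 and Vat1l had none at their own starts.

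With 8 regions each came Sorcs2, a sorting receptor that binds neurotrophins, Pard3, a polarity protein, Nckap5, the semaphorin gene Sema3e and Maml3, a Notch coactivator. Smad3, the transcription factor activated by TGF-beta receptors, had 7, of which 5 were in its first intron of 89549 bp. Foxn3, Pdgfd and Limch1 had 7 as well, and Nsmce2, Macrod1 and Lhfpl2 had 6. The regions of a host were spread differently. In Slc24a3 they ran from 58029 to 416183 bp after the start, and in Nckap5 all 8 lay within 349212 bp of the start of a gene of 917180 bp.

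**Figure D1:**
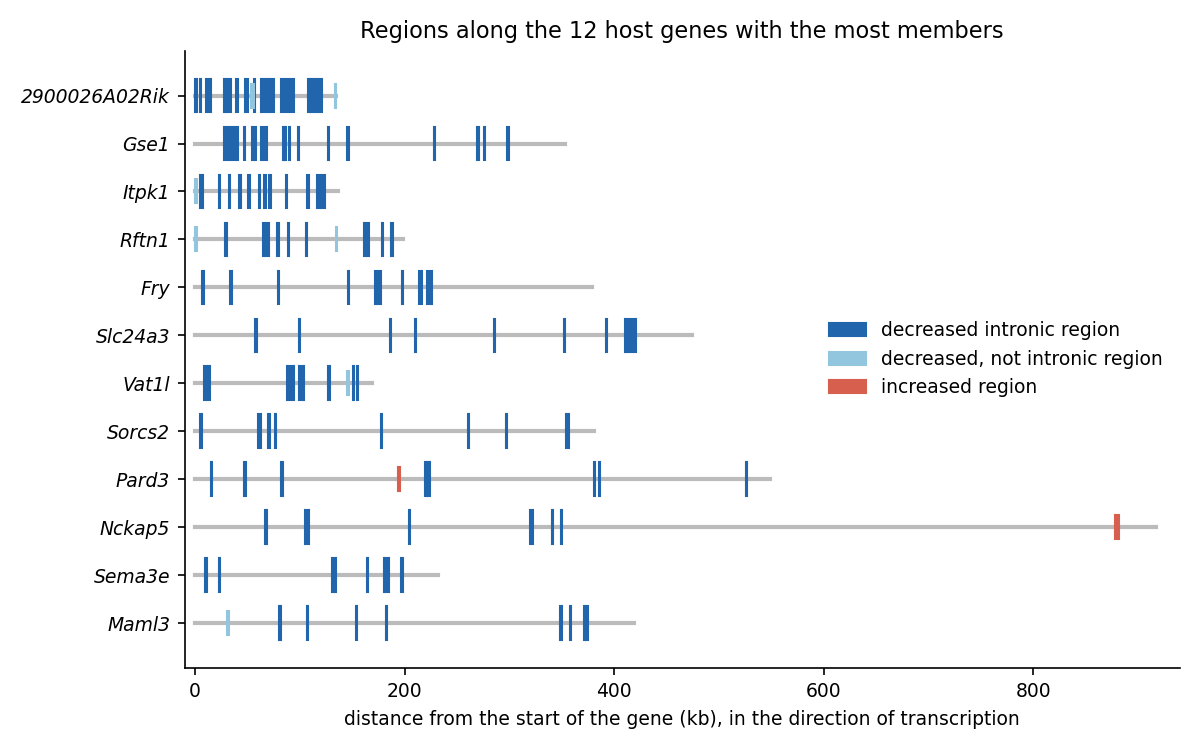
Regions along the 12 host genes with the most decreased intronic regions, Gm20388 left out. Each grey line is a gene, drawn from its start in the direction of transcription, with distance in kb, and the narrowest regions are drawn slightly wider than to scale so that they can be seen. Dark blue marks decreased intronic regions, light blue other decreased regions and red increased regions. Regions fill much of 2900026A02Rik, where 16 lie in 134914 bp, and red marks appear in Pard3 and Nckap5 alone.

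Per length of gene the order was another one. Among hosts of at least 4 regions, Tmem123 was the densest with 13.2 regions per 100 kb (4 in 30293 bp), ahead of 2900026A02Rik with 11.9, Lasp1 with 10.1, Smyd2 with 9.55 and Zfpm1 with 9.07. Lasp1 encodes an actin-binding LIM protein, Smyd2 a lysine methyltransferase and Zfpm1 the GATA cofactor FOG-1. The regions of Lasp1 covered 10668 bp, or 26.8% of the gene.

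Hosts were long genes. The median length of the protein-coding hosts was 85801 bp, beside 130517 bp for hosts of increased intronic regions and 18139 bp for all protein-coding genes on these chromosomes. The share of genes that hosted a decreased region rose from 0.492% of genes up to 10 kb to 15.4% of those of 30 to 100 kb and 42.8% of those over 300 kb. Per Mb of intron the order differed, at 2.07 regions in genes up to 10 kb, 4.33 in genes of 10 to 30 kb, 4.74 in genes of 30 to 100 kb, 4.47 in genes of 100 to 300 kb and 2.22 in genes over 300 kb. Increased intronic regions stood at 0.872, 1.11, 1.37, 1.55 and 1.25 per Mb in these classes.

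Of the hosts, 218 (11.7%) also held an increased intronic region, and these were 25.4% of the 857 hosts of increased intronic regions. This overlap counts hosts of every gene type. Among protein-coding genes alone, of those with room for a region, 4.81% hosted an increased region and 10.6% a decreased one. Long genes host both kinds more often, with 38.3 and 42.8% of genes over 300 kb, and the part of length in this overlap was not tested. Pard3 held 8 decreased regions and 1 increased, Nckap5 8 and 2, Limch1 7 and 1, Plcb4 5 and 1 and the long non-coding gene 2610307P16Rik 5 and 1. In Nckap5 the directions lay far apart, with the increased regions at 879297 and 881498 bp after the start and all decreased regions at 349212 bp or before. In 2610307P16Rik an increased region at 91993 bp lay next to a decreased region at 94586 bp. A decreased region within 1 kb of a start of the gene itself was found for 118 protein-coding hosts (7.51%) and for 328 of the 15149 protein-coding genes that were no host (2.17%). The hosts are the longer genes, and the part of length in this difference was not tested.

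The regions were short, with a median width of 870 bp (quartiles 632 and 1384 bp). Together they covered 3.36 Mb (increased intronic regions, 1.05 Mb). The shortest width that the lists contain, 501 bp, was shared by 510 regions (18.2%), beside 329 of 1077 increased intronic regions (30.5%), whose median was 760 bp. Decreased intergenic regions had a median of 806 bp and decreased promoter regions one of 858 bp. At least 3 kb wide were 145 decreased intronic regions (5.18%) and 25 increased intronic regions (2.32%). Joined from several called peaks were 192 (6.86%).

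The widest region spanned 12139 bp (chr17:56019258-56031396) in Sh3gl1, an endophilin of endocytosis, whose whole gene is 19886 bp long. It had been joined from 3 peaks and held 14 E-boxes CAGCTG. Next were regions of 9929 bp in Sh3pxd2b, an adaptor protein of podosomes, and 9065 bp in Atp6v0a1, a subunit of the vacuolar proton pump. Regions of 9004 bp in Slc24a3 and 8811 bp in 2900026A02Rik followed. The centres of the regions in Sh3gl1 and Sh3pxd2b lay in intron 1 of their hosts. Those in Atp6v0a1, Slc24a3 and 2900026A02Rik lay in introns 21, 7 and 6 in turn. Intron 21 of Atp6v0a1, its last, is 6706 bp long, so that region extends beyond it. The region in Atp6v0a1 lay 50877 bp after the start of its host and 9683 bp from a start of Naglu, which is the nearer gene. Of all 2797 regions, 312 had at least a base in an exon although their centre had none, and 2485 lay inside introns over their whole width.

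Distances to transcript starts are given from the centre of a region. The median distance to the nearest start of any gene was 10078 bp (quartiles 4494 and 22013 bp), beside 12462 bp for increased intronic regions. As background, the same was computed for 159965 intronic positions spaced 5 kb apart that met the same rule, for which it was 13627 bp. Between 1 and 5 kb from a start lay 776 regions (27.7%), beside 23.8% of increased intronic regions and 23.1% of background positions. Over 100 kb from any start lay 63 (2.25%), beside 4.83% and 5.98%. The longest distance was 441300 bp.

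The limit of 1 kb had regions close on both sides. Just inside it were regions at 1001 bp in Ubap1l, 1010 bp in Synpo and 1016 bp in Spats2l, and just outside, regions at 997 bp in Brpf3, 988 bp in Ifi35 and 987 bp in Serpina9. Within 1.1 kb were 23 of the regions described here, and 20 decreased regions that met the rest of the rule lay at 0.9 to 1 kb.

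**Figure D2:**
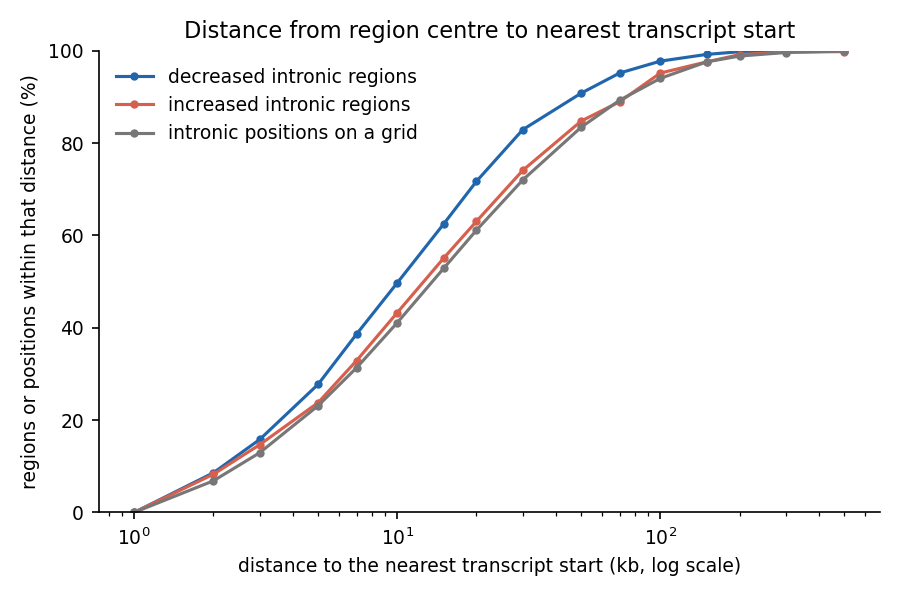
Share of regions or positions (%, vertical axis) whose centre lies within a given distance of the nearest transcript start (kb, log axis), for decreased intronic regions (blue), increased intronic regions (red) and intronic positions spaced 5 kb apart (grey). The blue line runs above both others over most of the range, in keeping with medians of 10078, 12462 and 13627 bp.

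The nearest start belonged to the host for 1845 regions (66.0%, interval 64.2 to 67.7), beside 61.4% of increased intronic regions (58.4 to 64.2) and 60.3% of background positions. For the other 952 regions it belonged to another gene, and in 784 of these only to genes that are not protein-coding. The share depended on which starts were counted. It was 90.4% with protein-coding genes alone and 39.8% with the outermost start of each gene alone.

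By intron number, in the longest transcript of the host with an intron at the centre, 993 regions (35.5%, interval 33.8 to 37.3) lay in the first intron, beside 32.0% of increased intronic regions (29.3 to 34.9) and 28.8% of background positions. The second intron held 535 (19.1%) and later introns 1269 (45.4%), where background positions stood at 17.98% and 53.3%. With any transcript allowed, the share in a first intron was 52.4%. The introns had a median length of 27906 bp, compared with 36930 bp for increased intronic regions and 31293 bp for background positions. Introns over 100 kb held 422 regions (15.1%), 22.9% of increased intronic regions and 23.8% of background positions.

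When each host was divided into 5 equal parts from start to end, the parts held 18.7, 24.6, 22.4, 18.3 and 16.02% of the regions in turn. Background positions stood at 19.2, 21.4, 21.2, 20.5 and 17.6%. Increased intronic regions stood at 21.9, 19.1, 22.7, 20.7 and 15.6%, with no lower share in the leading part than in the next. The rule removes positions near starts in all sets, and its part in these shares was not tested.

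Neighbouring regions were often close. The gap to the nearest other decreased intronic region had a median of 52613 bp (quartiles 11081 and 208939 bp), and 652 regions (23.3%, interval 21.8 to 24.9) had another within 10 kb. Increased intronic regions had a median gap of 278924 bp and 141 of 1077 (13.1%, 11.2 to 15.2) within 10 kb, but they are fewer, and fewer regions lie farther apart whatever their order. Within 10 kb of an increased region of any class were 49 decreased intronic regions (1.75%), compared with 768 (27.5%) within 10 kb of another decreased region of any class. The 2 sets of neighbours differ in size, with 2358 increased and 5445 decreased regions on these chromosomes.

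Runs of 3 or more regions with gaps of at most 10 kb numbered 50, with 178 regions (6.36%). A further 237 runs were pairs. In 49 of the 50 runs all regions had the same host, and the exception spanned Dok7 and Lrpap1, neighbours on chromosome 5. The runs had a median span of 14224 bp, from 4432 to 66596 bp, and their regions covered a median of 41.8% of that span. No run had an increased region within 10 kb, which only 1.75% of all decreased intronic regions had. Chromosome 8 held 10 of them and chromosome 5 held 6, whereas chromosomes 14, 19 and X held 0.

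The longest run joined 10 regions of 2900026A02Rik over 66596 bp (chr5:113127166-113193761), of which 47.7% was covered. The next joined 7 regions of Itpk1 over 49915 bp, where they were sparser and covered 13.9%. A run of 6 in Gse1 spanned 41824 bp, of which 51.9% was covered, and held 25 E-boxes CAGCTG. Runs of 4 were led in covered length by Agap1, for a GTPase-activating protein of membrane traffic, with 15643 bp, and by Lasp1, with 10668 bp. In Rxra, which encodes the retinoid X receptor that pairs with PPAR and other nuclear receptors, 4 regions over 21833 bp all lay in the first intron, 1126 to 15518 bp from the nearest start of the gene.

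The chromosomes differed in density. Over the 802.1 Mb of intronic sequence that met the rule, there were 3.49 decreased intronic regions per Mb. Chromosome 11 had 5.01 per Mb (255 regions), chromosome 8 had 4.83 (258) and chromosome 17 had 4.58 (167). The lowest values were 1.22 on chromosome 14 (59) and 0.557 on chromosome X (25). Increased intronic regions stood at 1.34 per Mb overall and at 0.943 on chromosome 11, 0.724 on chromosome 14 and 0.668 on chromosome X, so chromosomes 14 and X were low in both directions. The number of decreased for each increased intronic region ranged from 0.833 on X to 5.31 on chromosome 11, with 2.6 over all. Chromosomes 4, 7, 10 and 16, which the rule leaves out, held 958 more decreased intronic regions in uneven proportions. Decreased and increased intronic regions numbered 423 and 32 on chromosome 4, 411 and 35 on chromosome 16, 111 and 195 on chromosome 10 and 13 and 471 on chromosome 7. DNA copy number and depth per library cannot be told apart from the change in the mark with these lists.

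**Figure D3:**
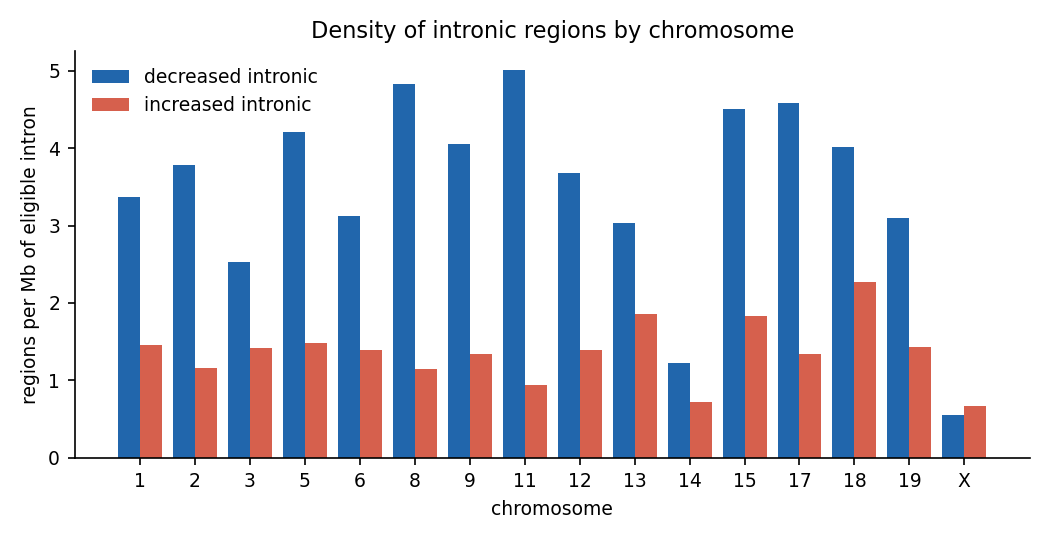
Decreased (blue) and increased (red) intronic regions per Mb of intronic sequence that met the rule (vertical axis), for each of the 16 chromosomes used. Blue bars reach 5.01 on chromosome 11 and exceed the red bars on all chromosomes but X, where both are under 0.7.

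Host genes were then read against 10 lists of muscle-related pathways. The lists were written with earlier results of these data known, so their shares and densities beside those of all genes are descriptions only. The median length of their genes ranged from 27378 to 117116 bp, beside 22336 bp for all protein-coding genes with room for a region, and longer genes host more often, so densities per Mb of intron are given too. Actin cytoskeleton and focal adhesion genes stood highest, with 20 of 49 hosting a decreased intronic region (40.8%, where 10.6% of all protein-coding genes did) and 5 hosting an increased one. Their 44 regions came to 7.51 per Mb of intron, beside 3.70 for all protein-coding genes counted in the same way. Arhgef7, an exchange factor for Rac and Cdc42, held 5 regions, and Lasp1, the actin-bundling scaffold Palld, the talin gene Tln2 and the tensin gene Tns3 held 4 each. Further hosts were Itga9, Nedd9, Parvb, Itgb3, Mical3, Actn1, Bcar3, Elmo1, Itga6, Itga8, Itgb6, Myh9, Pxn and Tns1, which include integrins, a tensin and a parvin of the contacts between cell and matrix. Of the 20 hosts, 3 also held increased intronic regions. Itga9 held 3 decreased and 4 increased, Palld 4 and 2 and Tln2 4 and 1.

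Fatty acid and triglyceride metabolism had 8 hosts among 42 genes (19.05%) and 1 host of an increased region. With 14 regions in 1.47 Mb it had the highest density of the lists, 9.53 per Mb. Lpin2 and Agpat4, enzymes of glycerolipid synthesis, and Mgll, the lipase of monoacylglycerols, held 3 regions each. Lpin1, Acacb, Elovl6, Gpam and Slc27a1 held 1 each. All of these act in the making, breakdown or uptake of lipids.

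Nuclear receptors and coregulators had 14 hosts among 45 (31.1%) with 32 regions, or 6.47 per Mb, and 5 hosts of increased regions. Rxra, the mineralocorticoid receptor gene Nr3c2 and the retinoic acid receptor gene Rarb held 4 each, and the orphan receptor genes Rora and Esrrg 3 each. Nr6a1, Ppargc1b, Tbl1xr1 and Thrb held 2 each, and Ncoa3, Pparg, Rara and Rarg 1 each. Among these, Tbl1xr1 encodes a corepressor component and Ncoa3 and Ppargc1b encode coactivators. Nr3c2, Esrrg, Ncoa3 and Pparg each also held 1 increased intronic region.

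In the list of TGF-beta, BMP and activin signalling, 9 of 42 genes (21.4%) were hosts, with 6.24 regions per Mb, and 2 hosted an increased region. Smad3 led with 7 regions, and Ltbp1, which stores latent TGF-beta in the matrix, and the activin receptor gene Acvr2a held 2. Acvr1, Bmp7, Bmpr1b, Smad2, Smad6 and Smurf1, an E3 ligase that targets receptors and Smads, held 1 each. Insulin, IGF and growth factor receptor signalling had 15 of 48 (31.2%) with 31 regions or 5.94 per Mb, and 10 hosts of increased regions. By the nearest start within 100 kb in place of the host, it had 9. Pdgfd, a ligand of the PDGF receptor beta, held 7, and Igf2r, the IGF2 clearance receptor, Igf2bp3 and Egfr held 3 each. In Igf2r, the region of 4037 bp centred in intron 10 was nearest to a start of Airn, the antisense transcript of that locus. The lists give no strand for the mark.

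Myogenic regulators and their cofactors had 9 hosts among 30 (30%, 4.51 regions per Mb), and 8 genes hosted increased regions (26.7%, 2.65 per Mb). For increased regions, all protein-coding genes stood at 4.81% and 1.36 per Mb. Megf10, a receptor of satellite cells, held 5 decreased and 2 increased regions. Nfix, a regulator of fetal muscle genes, held 3 decreased regions and the deacetylase gene Hdac4 and the E-protein gene Tcf12 held 2 each. Tcf12 also held 1 increased region. Eya2, Pax3, Zeb1 and Zeb2 held 1 decreased region each. The neuromuscular junction list had 10 of 35 (28.6%) and 9 with increased regions, at 1.95 and 1.65 regions per Mb. By the nearest start within 100 kb in place of the host, the list had 6. Dok7, the activator of the kinase MuSK, had a region of 4930 bp, and Scn4a, the muscle sodium channel, had 2 regions.

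The remaining lists had lower shares. Of 50 sarcomere and contractile genes, 9 were hosts (18%), with 10 regions or 2.23 per Mb, and 4 were counted by the nearest start within 100 kb. Actn2 held 2, and Tpm1, the tropomyosin gene, had a single region of 2648 bp in its last intron. Of 44 extracellular matrix genes, 7 were hosts (15.9%, 2.51 per Mb), led by Lama5 with 2. Of 52 Wnt and Hippo genes, 8 were hosts (15.4%, 4.21 per Mb), with 4 regions in Tcf7l2 and 3 in Tcf7l1, both nuclear partners of beta-catenin, 2 in Vgll4 and 1 in Tead3. Tcf7l1 also held 1 increased intronic region.

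**Figure D4:**
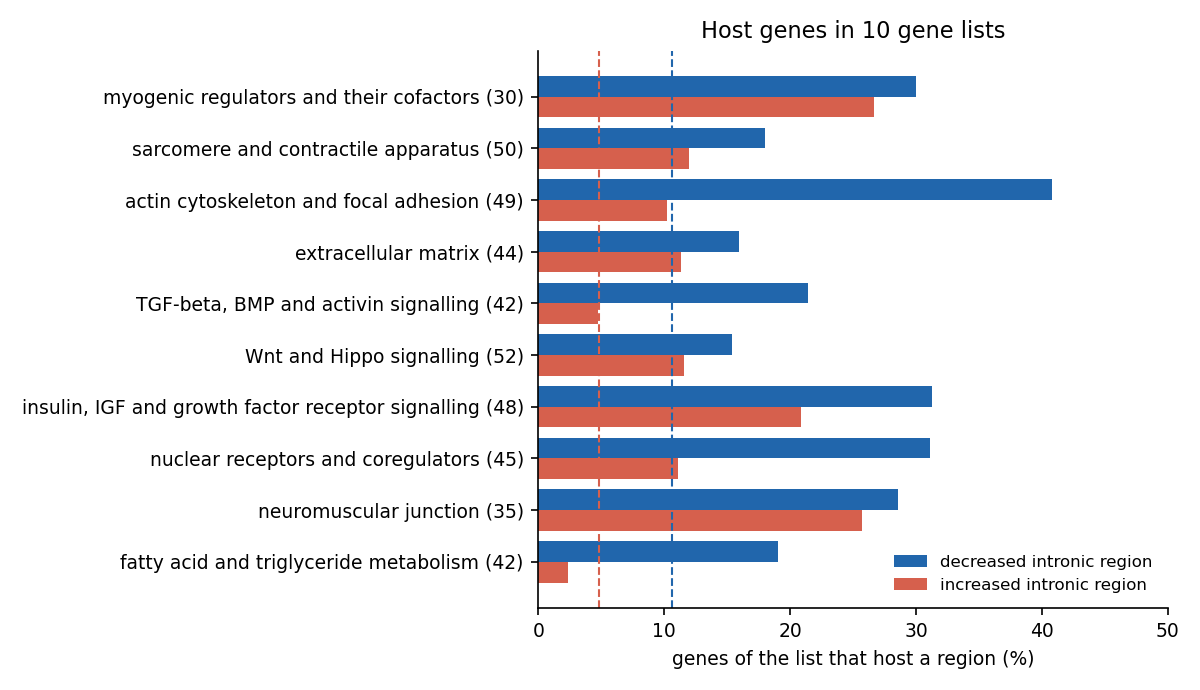
Share of the genes of each list (%, horizontal axis) that host a decreased (blue) or increased (red) intronic region, with the number of genes on the chromosomes used in brackets. Dashed lines mark the shares among all 14838 protein-coding genes with room for such a region, 10.6 and 4.81%. The lists were written with earlier results of these data known. Blue bars end beyond the blue line in every list, and the longest, for actin cytoskeleton and focal adhesion, reaches 40.8%, but the bars take no account of gene length, and per Mb of intron the neuromuscular junction (1.95), sarcomere (2.23) and extracellular matrix (2.51) lists lie below the 3.70 of all protein-coding genes.

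The sequence of the regions was described last. The mean GC content was 47.7% ± 4.68 (SD over 2797 regions), compared with 42.2% ± 4.70 in increased intronic regions, 47.0% ± 4.71 in decreased intergenic regions and 52.3% ± 6.76 in decreased promoter regions. Windows of 500 bp at the background positions had 42.1% ± 6.20. Sequence masked as repeats made up a mean of 17.4% of decreased and 17.5% of increased intronic regions, and 29.9% of the background windows.

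The E-box CAGCTG was found in the central 500 bp of 1040 regions (37.2%, interval 35.4 to 39.0). It was found in 27.5% of increased intronic regions (24.9 to 30.2) and in 18.1% of background windows. The search is sensitive to GC content. In windows of 45 to 50% GC the shares were 35.8% (980 regions), 35.7% (227) and 24.8%, and in windows of 50 to 55% GC they were 44.9% (761), 45.1% (71) and 32.1%. At 40 to 45% GC they were 31.4, 26.0 and 17.4%. In these 3 classes the intervals of decreased and increased regions overlapped and both shares were above that of the background windows. The part of GC content in the difference was not tested.

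Around the centres, matches were densest in the middle. In bins of 100 bp, decreased intronic regions had 1.03 matches per kb just before the centre and 0.536 per kb at 1400 to 1500 bp after it, where background positions had 0.424. Anywhere in their width, 1567 regions (56.0%) held a match and 71 held 5 or more. After the region in Sh3gl1 with 14 came a region of 4944 bp in Lmf1, a maturation factor of lipases, with 13.

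**Figure D5:**
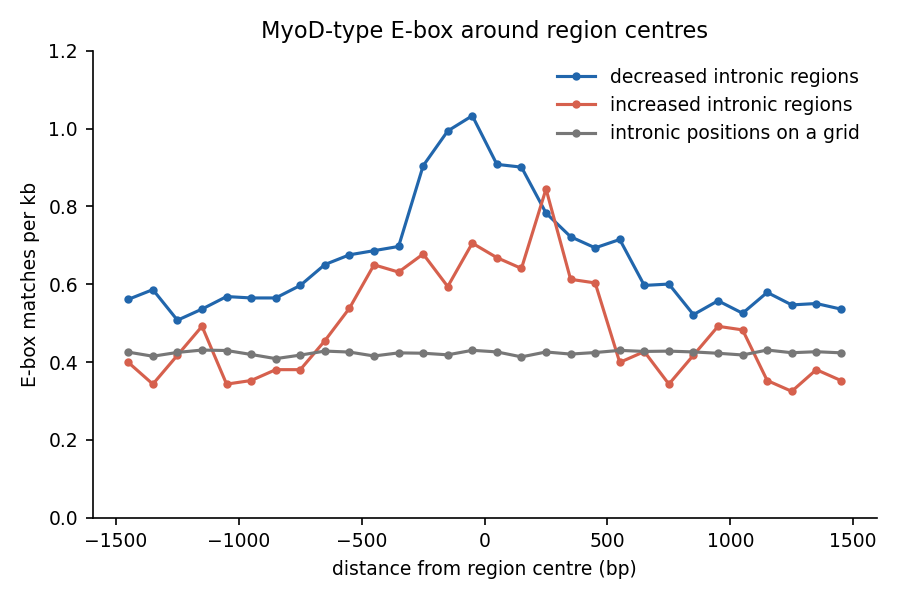
Matches to the E-box CAGCTG per kb (vertical axis) by distance from the region centre (bp), in bins of 100 bp, for decreased intronic regions (blue), increased intronic regions (red) and intronic positions spaced 5 kb apart (grey). The blue line reaches 1.03 near the centre and falls towards the flanks. The red line also rises towards the middle, to 0.845 at 200 to 300 bp after the centre, and the grey line stays close to 0.42 throughout.

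Other short motifs were searched in the same windows. The AP-1 motif (TGACTCA or TGAGTCA) was found in 12.5% of decreased intronic regions (11.3 to 13.8), 15.6% of increased ones (13.5 to 17.9) and 8.05% of background windows. For the TEAD motif CATTCC the shares were 28.1, 31.7 and 24.8%. In windows of 50 to 55% GC they were 28.6% (25.5 to 32.0), 49.3% (38.0 to 60.7, 71 regions) and 26.7%. In the other GC classes the intervals of decreased and increased regions overlapped. The shares were 27.4 and 27.8% at 35 to 40% GC, 26.2 and 32.0% at 40 to 45%, and 30.2 and 32.2% at 45 to 50%. At 55 to 60% GC they were 23.3 and 10%, the latter from 10 regions. For the RUNX motif TGTGGT the shares were 37.5, 35.3 and 32.1%. The nuclear receptor core motif GGTCA was found in 61.5, 56.3 and 53.8%, and the E-box CAGGTG in 32.2, 23.0 and 27.3%. All motifs were searched on both strands. The full direct repeat bound by PPAR was found in 2 decreased and 2 increased intronic regions, and the MEF2 motif in 1.04 and 1.58%. A match is a description of the sequence, and no binding was measured.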

How the data were processed

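Libraries of H3K27ac and IgG CUT&RUN were made from KO and control myotubes (2 per group). Per the labels and the study's methods, the authors aligned reads to mm10 with BWA-MEM2 (2.2.1), called broad peaks with HOMER (4.11) and kept regions whose peak intensity differed at least 2-fold. How replicates and IgG entered is not given in the sources used here, and the named antibody suppliers differ. The deposited lists hold positions, a region name with the number of peaks joined and a score with a constant value, which was not used. Depth is unknown.

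No position exceeded its chromosome in GRCm38.p6 (mm10), and positions are counted from 1. Each region was classed by its centre with GENCODE M21. A region with several hosts was described by its shortest protein-coding host for intron number and offset. Chromosome densities and list densities used gene bodies without exons and without 1 kb around starts. Motifs were matched exactly in RefSeq sequence. Scripts (Python 3.11.15, NumPy 2.4.6) were tested on made-up gene models with known classes and on planted motifs. The regions, the lists and the motifs were chosen with earlier results of these data known. Named genes were the 20 hosts with the most regions, the 4 leading hosts of each list, hosts of the 5 widest regions and of the 5 largest runs, 5 hosts with both directions and the 5 densest hosts with at least 4 regions. Other names are further hosts of a list or were chosen after their values were seen, and some hosts are not reported here by name. No test was made, as no value per library was used here.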

Additional observations from a re-analysis of the deposited data

How the results depend on the processing

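Of 57 alternative values, 42 stayed close to the main value, within 1.5 times for a count or within its counting interval for a share. The 2797 regions and 1858 hosts fell to 1165 and 921 when only regions at least 1 kb wide were kept, and otherwise ranged from 2287 to 3755 and from 1597 to 2386. The share with the nearest start at the host was 90.4% with protein-coding genes only and 39.8% with gene starts only, and the share in a first intron was 52.4% with any transcript. The share with a neighbour within 10 kb became 14.98% at 5 kb, 37.5% at 25 kb and 27.5% with any decreased region as the neighbour, and the 50 runs became 26 at 5 kb and 112 at 25 kb. E-box shares were 17.4% in the central 200 bp and 56.0% over whole regions, as fewer or more bases were searched. By nearest start within 100 kb instead of host, 84 in place of 108 list genes were counted, and 3 lists moved by over 1.5 times: sarcomere and contractile genes from 9 to 4, growth factor receptor signalling from 15 to 9 and the neuromuscular junction from 10 to 6. The setting without Gm20388 was added after seeing the data. Leaving out a replicate was not run, because the lists hold no value per library. No paired analysis was possible because the result comes from no test and the lists carry no replicate numbers.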

Other observations

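Non-coding genes held a part of the decreased intronic regions, and 264 regions had no protein-coding host. The leading non-coding hosts were Pvt1 on chromosome 15, the neighbour of Myc, Lncpint on chromosome 6, Gm26561 on chromosome 17 and 2610307P16Rik on chromosome 13, with 5 regions each. These counts include regions that also have a protein-coding host. The 3 regions of Lpin2 lie within Gm26561 and are among its 5, so they are not part of the 264. Pvt1 and 2610307P16Rik also held 1 increased intronic region each, and Lncpint and Gm26561 held 0.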
